A study of Homo sapiens with 4 samples.

Results

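The set analysed here is 10 genes grouped as immediate early genes: FOS, FOSB, FOSL1, JUN, JUNB, ATF3, EGR1, IER2, IER3 and MYC. Most of them encode transcription regulators, and most are switched on within minutes of a stimulus. They were chosen by name from the 36601 genes listed in the count matrices, and all 10 were found. The cells were BEAS-2B, an immortalized line of normal human bronchial epithelium, exposed to gamma rays from a Cs-137 source. Single-cell RNA libraries were made from an unirradiated control and from cells given 10 mGy, 100 mGy or 1 Gy, with 1 library for each dose. Per the study's methods, all 3 doses were given at 100 mGy per minute and the irradiated cells were cultured for 30 min before collection, so exposure itself lasted longest at 1 Gy. The 10 mGy and 100 mGy libraries form the low-dose group and the 1 Gy library the high-dose group. With 1 library per dose there is no replicate check, a dose effect and a library effect cannot be told apart, and no p-value is given. All intervals below are exact 95% intervals that cover counting error only.

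Immediate early genes are transcribed without new protein synthesis, because the factors that switch them on (serum response factor with ELK partners, and CREB and ATF proteins) already sit in the cell and are activated by kinase signalling. Fos and Jun proteins pair through leucine zippers into AP-1, which binds its own DNA motif; Fos proteins cannot pair with themselves, while Jun proteins can. Most immediate early mRNAs are short-lived and the response is shut down by inhibitors that belong to the same early wave, such as dual-specificity phosphatases and mRNA-decay factors.

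Start-site windows were matched by symbol to a RefSeq table (build GRCh38.p14, 250 bases before to 50 bases after the start) for 7 of the 10 genes: FOS, FOSB, JUN, JUNB, ATF3, EGR1 and IER2. FOSL1 and IER3 had no window in it, and MYC was left out of the search. The 4 printed below are those of FOS, FOSB and EGR1, and of JUN as the partner of both Fos proteins. Capitals mark the CRE-like motif TGACNTCA, its short form TGACG, the AP-1 motif TGANTCA, the CArG box (the serum response factor motif), the TATA box TATAAA and the EGR motif GCGNGGGCG, each searched on both strands. FOS lies at chr14:75278578-75278877 on the plus strand, FOSB at chr19:45467746-45468045 on the plus strand, JUN at chr1:58783998-58784297 on the minus strand and EGR1 at chr5:138465229-138465528 on the plus strand.
FOS: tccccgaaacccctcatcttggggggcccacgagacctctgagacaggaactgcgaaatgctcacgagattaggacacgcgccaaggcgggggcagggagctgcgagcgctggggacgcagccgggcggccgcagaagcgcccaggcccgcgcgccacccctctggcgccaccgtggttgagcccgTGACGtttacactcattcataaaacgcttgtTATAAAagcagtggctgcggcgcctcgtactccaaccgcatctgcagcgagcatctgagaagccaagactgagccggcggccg
FOSB: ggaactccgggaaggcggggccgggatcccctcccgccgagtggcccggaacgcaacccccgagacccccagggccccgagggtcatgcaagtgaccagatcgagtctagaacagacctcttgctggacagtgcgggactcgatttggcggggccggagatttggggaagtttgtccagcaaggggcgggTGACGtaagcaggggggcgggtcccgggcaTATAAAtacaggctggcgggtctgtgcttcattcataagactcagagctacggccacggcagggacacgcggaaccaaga
JUN: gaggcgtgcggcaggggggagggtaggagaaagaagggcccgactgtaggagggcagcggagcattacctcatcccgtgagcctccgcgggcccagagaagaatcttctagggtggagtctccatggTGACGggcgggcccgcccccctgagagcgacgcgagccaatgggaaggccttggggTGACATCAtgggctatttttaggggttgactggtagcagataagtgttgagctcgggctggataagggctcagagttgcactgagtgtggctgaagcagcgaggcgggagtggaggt
EGR1: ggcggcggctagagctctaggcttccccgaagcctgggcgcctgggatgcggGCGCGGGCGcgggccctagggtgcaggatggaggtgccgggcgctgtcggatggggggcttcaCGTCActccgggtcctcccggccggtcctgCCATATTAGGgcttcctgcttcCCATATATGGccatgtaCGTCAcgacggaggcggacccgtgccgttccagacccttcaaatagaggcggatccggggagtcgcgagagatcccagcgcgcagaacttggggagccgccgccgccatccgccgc

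The EGR1 window held 2 CArG boxes, starting 105 and 83 bases before the start site, a motif present in 1.29% of the 35116 promoters in the table. EGR1 also held 2 TGACG motifs, read on the other strand, and 1 EGR motif, which 9.43% of promoters had. The FOS and FOSB windows each held 1 TGACG motif followed by a TATA box, starting 64 and 33 bases before the start in FOS and 60 and 30 in FOSB. JUNB had the same arrangement, starting 137 and 31 bases before the start, and JUN and IER2 held TGACG without the TATA box. The second ATF3 window held the letters TATAAA alone, starting 230 bases before the start and so far from the position in FOS, FOSB and JUNB. TGACG was found in 24.6% of promoters and the TATA box in 11.5%. The JUN window held TGACATCA starting 67 bases before the start, and ATF3 had the same 8 letters in 1 of its 2 windows, against 7.72% of promoters with TGACNTCA. The AP-1 motif was in none of the windows searched for these genes and in 7.71% of all promoters. TGACNTCA holds TGACG where N is G, and neither holds the AP-1 motif. CCAAT was present in the JUN, JUNB and ATF3 windows (34.6% of promoters), and GGGCGG in those of FOS, FOSB, JUN, ATF3 and IER2 (45.0%). A match is a description of letters and not a measured binding site. Sites further upstream lie outside the windows, so a missing motif does not show that a gene lacks it. Whether any motif had a part in the levels was not tested.

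Depth and composition differed between the libraries. The matrices held 11111 barcodes for control, 21514 for 10 mGy, 19950 for 100 mGy and 15510 for 1 Gy, with 211752280 to 285806026 UMIs (unique molecules) and a median of 12417 to 19771 UMIs per barcode. The low-dose libraries stood apart from control and 1 Gy: ribosomal protein genes took 19.9% and 21.7% of their UMIs, against 13.9% and 14.0%, and mitochondrially encoded genes 4.55% and 4.40%, against 5.91% and 5.78%. Barcodes with under 1/3 of the library's median UMIs were most frequent at 10 mGy (41.4%, against 19.6 to 27.4%), and 1.41 to 1.96% of barcodes also occurred in another library. The 8507 genes with a mean of at least 10 UMIs per 1000000 (CPM) over the 4 libraries were taken as tested. Their median log2 ratio to control was -0.30 at 10 mGy and -0.38 at 100 mGy, and 0.02 at 1 Gy, so most genes had a lower CPM at the low doses, and ratios scaled to the typical gene (median ratio scaling) are given beside the CPM ratios. Of the 8 epithelial markers, KRT7, KRT8 and KRT18 were over 10 CPM and CDH1, KRT5 and TP63 were under 1 CPM in every library, with a summed list level of 1017 to 1156 CPM. Of the 10 markers of other cell types, 8 were under 1 CPM and CD3E was at 0 in every library; the list summed to 23.8 to 28.4 CPM, most of it COL1A1. Counts with ribosomal protein and mitochondrially encoded genes left out of the totals, and without low-UMI barcodes, are given at the end. Whether any of these differences had a part in the results was otherwise not tested.

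In the low-dose group the 3 Fos genes were the lowest of the set relative to control, and EGR1 was the only one of the 10 over 1.2-fold higher in CPM. At 1 Gy the set was close to control apart from FOSB and EGR1. All 10 genes passed the 10 CPM filter, but FOS (mean 10.8 CPM) passed through its control and 1 Gy levels alone, and FOS at both low doses, FOSB at 100 mGy and ATF3 at 100 mGy were below 10 CPM. Against control, 1 of the 10 was over 1.2-fold higher and 8 were over 1.2-fold lower at 10 mGy, where 15.4% of tested genes were higher and 53.0% lower by the same rule. At 100 mGy 1 was higher and 9 lower, against 14.0% and 58.9% of tested genes. At 1 Gy 2 were higher and 0 lower, against 1.28% and 0.846%. With median ratio scaling the counts at 10 mGy were 2 higher, EGR1 and IER3 (ratio 1.24), and 3 lower (background 30.6% and 27.3%). They were 1 and 3 at 100 mGy (31.8% and 29.0%), and 2 and 0 at 1 Gy (0.658% and 1.59%). The median log2 CPM ratio of the 10 genes was -0.41, -0.55 and -0.03 at the 3 doses in rising order. These 3 comparisons share the control library.

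**Figure D1:**
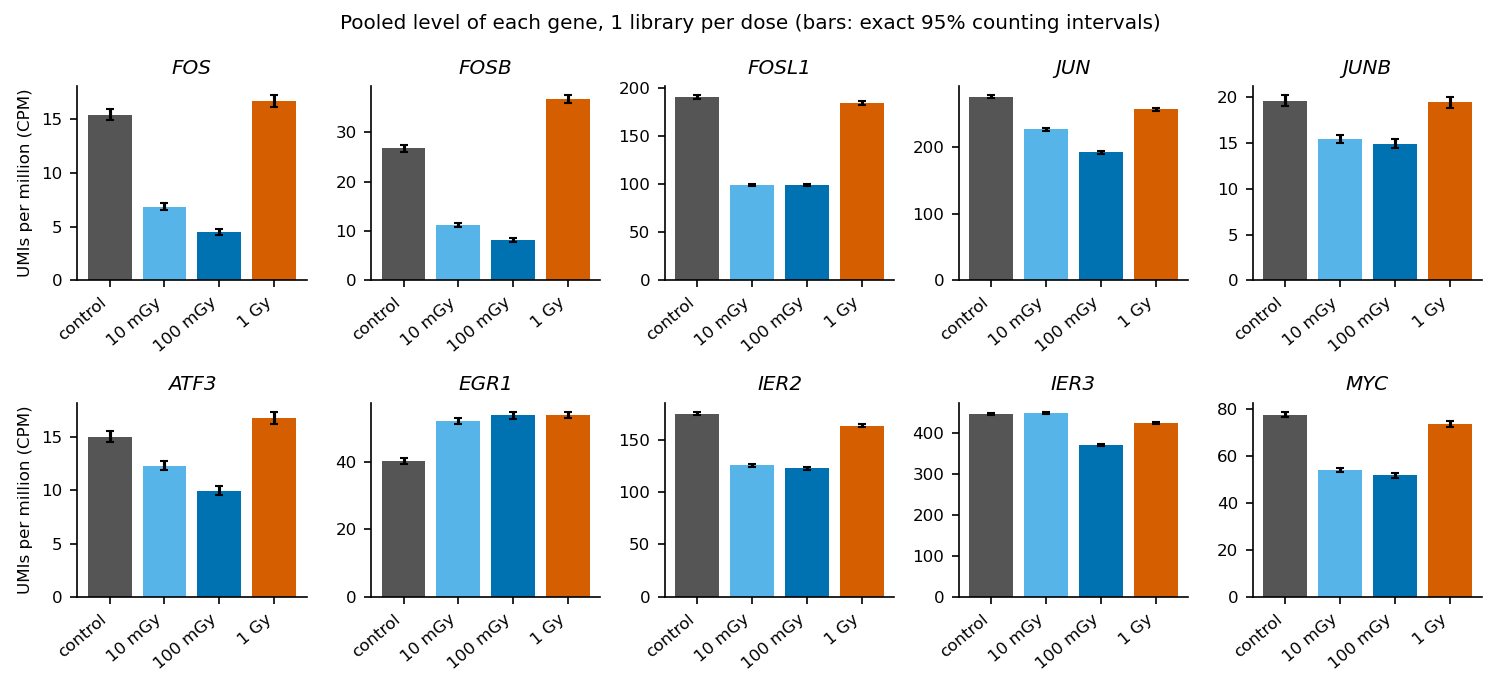
Level of each of the 10 genes in CPM (y axis from 0) in the control, 10 mGy, 100 mGy and 1 Gy libraries (x axis), with exact 95% Poisson intervals as error bars. FOS, FOSB and FOSL1 are lowest in the low-dose libraries, and EGR1 is lowest in control.

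FOS, the prototype Fos subunit of AP-1, had 15.4 CPM in control, 6.83 at 10 mGy and 4.50 at 100 mGy, and 16.6 at 1 Gy. The low-dose libraries were both far below the other two, and no pair of libraries had overlapping counting intervals. The CPM ratio to control was 0.444 (interval 0.419 to 0.469) at 10 mGy, 0.292 (0.273 to 0.313) at 100 mGy and 1.08 (1.03 to 1.13) at 1 Gy. On the log2 scale with median ratio scaling FOS stood at -0.87, -1.39 and 0.08, so the low-dose difference exceeded the shift of the typical gene.

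FOSB, a second Fos subunit, had 26.8 CPM in control, 11.2 at 10 mGy and 8.14 at 100 mGy, and 36.7 at 1 Gy. It had the widest span of the set, with a 1 Gy level 4.51 times that at 100 mGy (interval 4.29 to 4.74). Its CPM ratio to control was 0.418 (0.400 to 0.436) at 10 mGy, 0.304 (0.288 to 0.320) at 100 mGy and 1.37 (1.32 to 1.42) at 1 Gy, where 99.9% of tested genes had a lower ratio. Across 8 other ways of scaling or filtering, the 1 Gy ratio lay between 1.29 and 1.38 and the 100 mGy ratio between 0.290 and 0.396.

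FOSL1, which encodes FRA-1, a Fos subunit that lacks the strong activation domain of FOS, had 191 CPM in control, 99.2 at 10 mGy and 99.6 at 100 mGy, and 185 at 1 Gy. The low-dose libraries had overlapping intervals with each other and lay below both other libraries. The CPM ratio to control was 0.519 (0.512 to 0.527), 0.521 (0.513 to 0.530) and 0.967 (0.953 to 0.980) at the 3 doses. With median ratio scaling the log2 ratios were -0.64, -0.56 and -0.08. FOSL1 thus showed no further step between 10 and 100 mGy, whereas FOS and FOSB at 100 mGy were 0.659 (0.612 to 0.710) and 0.727 (0.687 to 0.769) of their 10 mGy levels.

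JUN, which encodes c-Jun, the AP-1 subunit able to pair with itself and with Fos proteins, had 275 CPM in control, 226 at 10 mGy and 192 at 100 mGy, and 256 at 1 Gy. Its CPM ratios were 0.822 (0.813 to 0.831), 0.697 (0.689 to 0.706) and 0.931 (0.920 to 0.942). With median ratio scaling the log2 ratios were 0.02, -0.14 and -0.13, so the sign at 10 mGy depended on the scaling. JUNB, a Jun subunit that is a weaker activator than c-Jun, had 19.6, 15.4, 14.9 and 19.4 CPM in the same order of libraries. Its control and 1 Gy intervals overlapped, as did those of the 2 low doses, and after median ratio scaling its log2 ratios were -0.05, -0.01 and -0.04. At 1 Gy, where ratios were tightly spread, 13.8% of tested genes had a lower ratio than JUN and 38.9% a lower ratio than JUNB.

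ATF3, a stress-induced ATF/CREB family factor that acts mainly as a repressor when paired with itself, had 15.1 CPM in control, 12.3 at 10 mGy and 9.98 at 100 mGy, and 16.8 at 1 Gy. Its CPM ratios were 0.818 (0.779 to 0.858), 0.663 (0.629 to 0.699) and 1.12 (1.07 to 1.17). With median ratio scaling the log2 ratio was 0.01 at 10 mGy, where the CPM value was -0.29, and then -0.21 and 0.13.

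EGR1, a zinc finger factor and a classical target of serum response factor, went the other way from the Fos genes in the low-dose group. It had 40.2 CPM in control, 52.2 at 10 mGy and 53.8 at 100 mGy, and 53.9 at 1 Gy, and the 100 mGy interval overlapped those of both other irradiated libraries. Its CPM ratio to control was 1.30 (1.26 to 1.33), 1.34 (1.30 to 1.37) and 1.34 (1.30 to 1.38). Among tested genes, 89.1% had a lower ratio at 10 mGy and 91.1% at 100 mGy, and 99.9% at 1 Gy. With median ratio scaling the log2 ratios were 0.68, 0.80 and 0.39, and over the 8 other settings the ratio stayed between 1.27 and 1.75 in all 3 comparisons. Per barcode, not in CPM, EGR1 had 0.770 UMIs in control and 0.694, 0.659 and 0.735 in the irradiated libraries, whose barcodes held fewer UMIs in all.

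IER2, a small nuclear regulator of the immediate early wave, had 175 CPM in control, 125 at 10 mGy and 123 at 100 mGy, and 163 at 1 Gy. Its CPM ratios were 0.717 (0.707 to 0.728), 0.702 (0.691 to 0.713) and 0.934 (0.921 to 0.948), and -0.18, -0.13 and -0.13 on the log2 scale after median ratio scaling. IER3, a stress-inducible protein linked to cell survival and to ERK and NF-kB signalling rather than a DNA-binding factor, had 447, 449, 370 and 424 CPM. The 10 mGy and control intervals of IER3 overlapped, and the 100 mGy library was lowest with a ratio of 0.828 (0.821 to 0.836). That direction turned with the scaling: IER3 at 100 mGy was -0.27 on the log2 CPM scale and 0.11 after median ratio scaling, and at 10 mGy it was 0.01 and 0.31.

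MYC, a basic helix-loop-helix factor that drives growth and ribosome synthesis with its partner MAX, had 77.5 CPM in control, 54.1 at 10 mGy and 51.7 at 100 mGy, and 73.4 at 1 Gy. The CPM ratios were 0.698 (0.683 to 0.713), 0.666 (0.651 to 0.682) and 0.947 (0.927 to 0.968). After median ratio scaling the log2 ratios were -0.22, -0.20 and -0.11, which kept the direction at a smaller size.

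**Figure D2:**
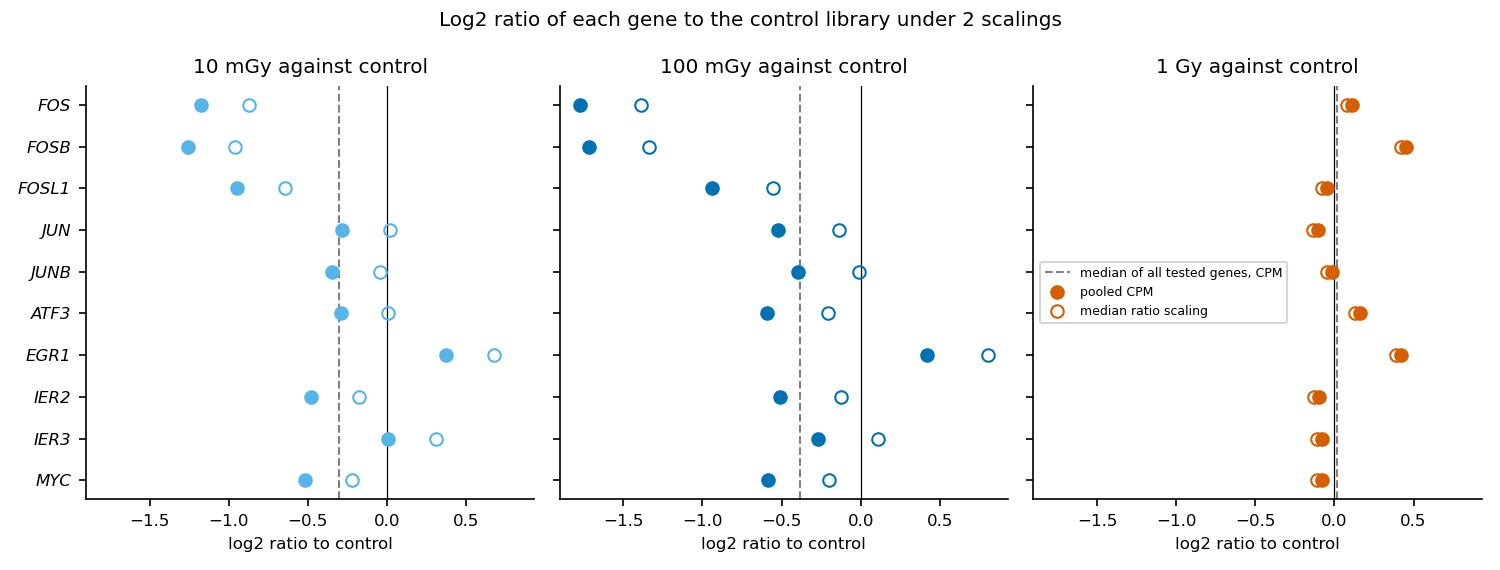
Log2 ratio of each gene to the control library at 10 mGy, 100 mGy and 1 Gy (x axis), as pooled CPM (filled) and after median ratio scaling (open), with the CPM median of the 8507 tested genes as a dashed line. FOS and FOSB lie at -1.33 or below at 100 mGy under both scalings, and EGR1 lies to the right of 0 in all 3 panels.

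In these libraries the ratio at the low doses also ran with exonic length, the bases covered by all exons of a gene. Lengths were taken from a GENCODE annotation of GRCh38, which may differ from the annotation behind the counts. Over the 8500 tested genes with an exonic length there, the median log2 CPM ratio at 10 mGy went from 0.19 in the shortest 1/5 of genes to -0.61 in the longest, and at 100 mGy from 0.15 to -0.73. The 10 genes ran from 1356 bases in IER3 to 5553 in FOSB. FOSB fell in the middle length class (4524 to 6234 bases) and the other members in shorter classes. All 10 were therefore also set against the median of their own length class. On that scale FOS stood at -1.02 and -1.55 at 10 and 100 mGy, FOSB at -0.92 and -1.32, and FOSL1 at -1.14 and -1.09. EGR1 stood at 0.53 and 0.64, and MYC at -0.71 and -0.73. JUN (-0.13 and -0.30) and ATF3 (-0.13 and -0.37) were nearer to genes of like length, with IER2 at -0.32 and -0.29. IER3 stood at -0.18 and -0.42, below its length class at both low doses, although its log2 ratios after median ratio scaling were above 0. JUNB, near the typical gene after median ratio scaling, stood at -0.54 at both low doses against its length class. At 1 Gy, FOSB (0.43) and EGR1 (0.40) had the highest values of the 10 against their own class, and the other 8 lay between -0.13 and 0.14.

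The share of cells with at least 1 UMI was compared after each cell was thinned to 5000 UMIs, which left 9060 control cells, 12561 at 10 mGy and 14271 at 100 mGy, and 11530 at 1 Gy and left out 2051, 8953, 5679 and 3980 shallower barcodes. FOS was seen in 7.35% of control cells (interval 6.82 to 7.91), 3.30% at 10 mGy (2.99 to 3.62) and 2.28% at 100 mGy (2.04 to 2.54), and 7.68% at 1 Gy (7.20 to 8.18). FOSB was seen in 11.9% (11.2 to 12.6), 4.90% (4.53 to 5.29), 3.84% (3.53 to 4.17) and 15.6% (14.9 to 16.2). For FOSB all 4 shares had separate intervals, while those of FOS in control and at 1 Gy overlapped. EGR1 was seen in 14.6% of control cells (13.8 to 15.3), 17.9% at 10 mGy (17.3 to 18.6) and 18.5% at 100 mGy (17.9 to 19.1), and 19.5% at 1 Gy (18.7 to 20.2). EGR1-positive cells were thus more frequent in each irradiated library than in control at equal depth.

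FOSL1 was seen in 58.7%, 37.4%, 36.8% and 57.6% of thinned cells in control, 10 mGy, 100 mGy and 1 Gy. JUN was seen in 71.2%, 65.3%, 58.8% and 69.5%, and IER2 in 56.8%, 45.7%, 43.5% and 54.4%. IER3 was the most widely detected at 84.3%, 84.0%, 77.8% and 83.4%. MYC was seen in 31.2%, 23.1%, 22.5% and 30.6%, JUNB in 9.00%, 7.39%, 6.85% and 9.32%, and ATF3 in 7.51%, 6.19%, 4.78% and 7.87%. The intervals of the 2 low-dose libraries overlapped for FOSL1, MYC and JUNB. At 1500 UMIs per cell, which also brought in shallower barcodes (19466 cells at 10 mGy and 15374 at 100 mGy), the 10 mGy share was below the 100 mGy share for FOSL1 (12.2% and 13.8%), IER2 (15.9% and 16.3%), JUNB (1.81% and 2.28%) and ATF3 (1.54% and 1.55%), so the order of the 2 low doses turned for these genes, and the changes of depth and of cells cannot be told apart. Without thinning, barcodes of unequal depth were compared: FOS was in 21.8%, 7.55%, 4.87% and 17.7% of barcodes, FOSB in 31.7%, 11.2%, 8.29% and 30.1%, and EGR1 in 32.6% of control, 32.4% of 1 Gy and at least 28.2% of low-dose barcodes. For FOS, FOSB, EGR1, ATF3 and JUNB the order of control and 1 Gy was opposite in the unthinned shares, and EGR1 was no longer least frequent in control. For all of these but JUNB the unthinned order of control and 1 Gy goes against the CPM, and no order is read from it. Unthinned, FOSL1 was in 51.1 to 80.9% of barcodes, JUN in 64.7 to 84.9%, JUNB in 14.4 to 26.3%, ATF3 in 10.4 to 21.8%, IER2 in 56.5 to 81.5%, IER3 in 77.1 to 89.6% and MYC in 38.8 to 64.1%. The libraries hold 1 cell line, so no cell type that should lack these genes could set a background of free RNA.

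**Figure D3:**
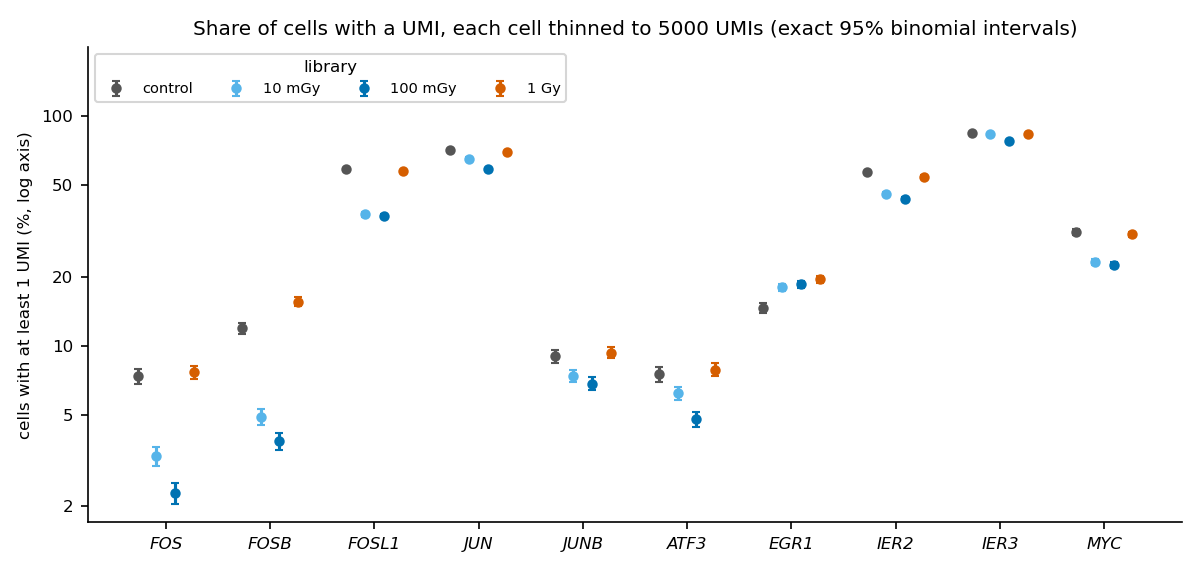
Share of cells with at least 1 UMI of each gene (y axis, percent on a log scale) in the 4 libraries after thinning each cell to 5000 UMIs, with exact 95% binomial intervals. FOS and FOSB cells are less frequent in the low-dose libraries (2.28 to 4.90%) than in control and at 1 Gy (7.35 to 15.6%), and EGR1 cells are least frequent in control.

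The dispersion between cells was highest for EGR1 among the 10 genes. In thinned cells, the highest 5% of cells held 54.2% of all EGR1 UMIs in control, 51.3% at 10 mGy and 50.1% at 100 mGy, and 47.8% at 1 Gy. An even (Poisson) spread of the same mean would put 33.7%, 31.0%, 30.5% and 30.5% of UMIs in the highest 5% of cells. The variance of EGR1 UMIs divided by their mean (the Fano factor, 1 for an even spread) was 1.82, 1.90, 2.01 and 1.84, higher than in 99.5 to 99.6% of tested genes, whose median was 1.02. Cells with 5 or more EGR1 UMIs made up 0.276% of control cells (25 cells), 0.414% at 10 mGy (52) and 0.469% at 100 mGy (67), and 0.494% at 1 Gy (57). Control thus had the smallest shares of cells with 1 EGR1 UMI and of cells with 5 or more. In sparse counts the top share depends on the mean, and without thinning its order over the libraries differed: 46.7% in control, 49.4% at 10 mGy and 48.0% at 100 mGy, and 44.6% at 1 Gy.

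IER3 had the second highest Fano factor, at 1.54 in control, 1.56 at 10 mGy and 1.60 at 100 mGy, and 1.42 at 1 Gy. Its highest 5% of cells held 16.0%, 16.2%, 17.7% and 15.6% of its UMIs, against 12.8%, 12.8%, 13.8% and 13.2% for an even spread. The Fano factor rises with the mean: the excess variance divided by the squared mean was 0.197 to 0.321 for IER3, below that of FOS (1.37 to 2.03), FOSB (1.13 to 2.64), ATF3 (1.40 to 2.29) and JUNB (0.603 to 1.60), and 2.91 to 3.94 for EGR1, still the highest in each library. JUN had a Fano factor of 1.19 to 1.26, with 17.4 to 19.5% of UMIs in the highest 5% of cells against 15.6 to 17.7% for an even spread. IER2 had a Fano factor of 1.16 to 1.19 and top shares of 20.4 to 23.9% (even spread 18.6 to 20.9%). FOSL1 had 1.09 to 1.13 and 19.4 to 25.7% (even spread 18.1 to 23.7%). MYC had 1.08 to 1.10 and 28.9 to 34.3% (even spread 27.7 to 31.0%). For FOS and FOSB at both low doses and ATF3 at 100 mGy, fewer than 5% of cells had a UMI, so the top share was 100% and carries no information. Where it could be read, it was 70.8% for FOS in control and 68.3% at 1 Gy (even spread 66.0% and 63.5%), and 49.4% and 42.9% for FOSB (43.2% and 35.8%). JUNB had 57.7 to 75.3% over the 4 libraries (even spread 53.9 to 70.7%), and ATF3 66.2 to 82.5% outside 100 mGy (63.1 to 77.2%).

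**Figure D4:**
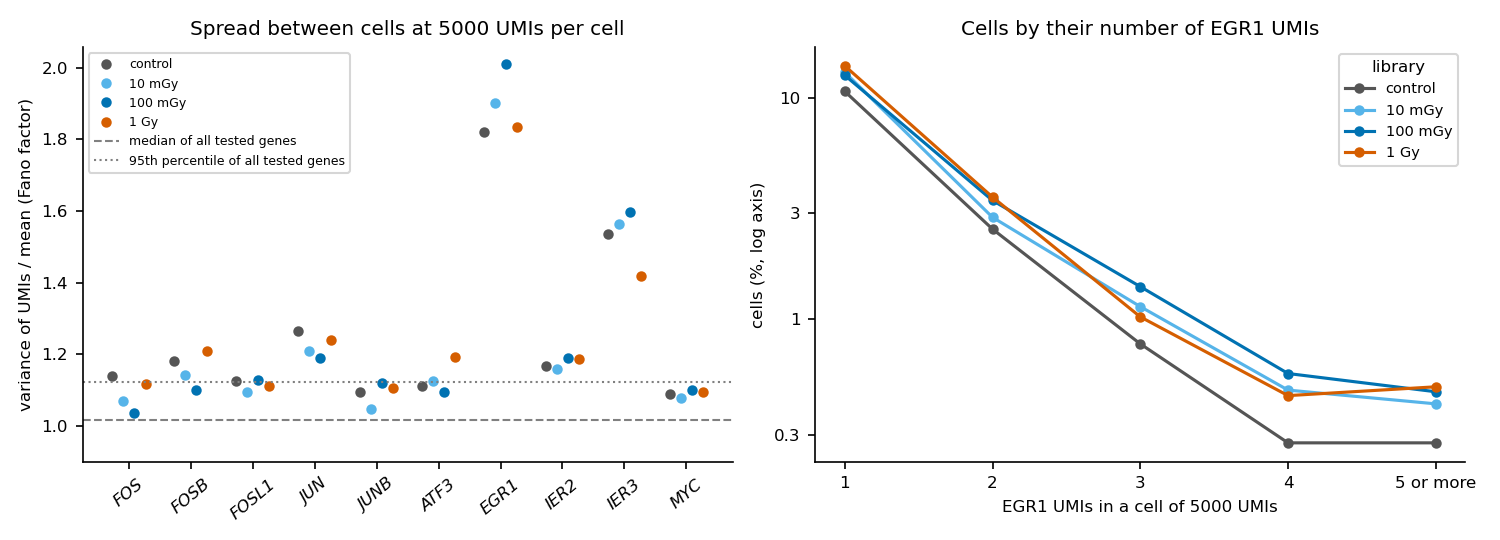
Left, Fano factor of each gene (variance of UMIs over mean, y axis) in the 4 libraries at 5000 UMIs per cell, with lines at the median and the 95th percentile of all tested genes, each averaged over the 4 libraries. Right, percent of cells (log axis) by their number of EGR1 UMIs; EGR1 has the highest Fano factor of the 10 genes (1.82 to 2.01), and the control curve is lowest at every number of UMIs plotted, from 1 upward.

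Levels were also compared between low-UMI barcodes and the others. In barcodes under 1/3 of the library's median, pooled EGR1 was at 47.4 CPM in control, 66.5 at 10 mGy and 73.2 at 100 mGy, and 58.6 at 1 Gy, against 40.1, 51.4, 53.3 and 53.7 CPM in the other barcodes. The other 9 genes had lower CPM in low-UMI barcodes than in the other barcodes of the same library, in all 4 libraries. For ATF3 in control the levels were nearly equal, at 15.0 and 15.1 CPM. No interval was computed for these levels, so the direction for ATF3 in control is not read. FOS in low-UMI barcodes was at 12.0, 3.50, 2.64 and 11.1 CPM, and FOSB at 16.1, 3.43, 4.61 and 16.8 CPM. The low-dose levels of both were below control and 1 Gy in either class of barcode.

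Most cells held UMIs of a few members at once. The median number of the 10 genes seen in a thinned cell was 3 in control and at both low doses and 4 at 1 Gy, and 0.618%, 1.58%, 2.75% and 0.833% of cells held none. Cells with at least 2 of FOS, FOSB, EGR1 and ATF3 made up 6.35% of control cells, 3.49% at 10 mGy and 2.52% at 100 mGy, and 8.80% at 1 Gy. Cells with all 4 were rare, numbering 6, 5, 1 and 9. These shares and numbers also depend on how often each gene was seen by itself. The overlap due to that was not computed, so no change of co-detection with dose is read from them. Correlations between members over cells were weak in every library: ranked by the lowest r over the 4 libraries, the first pair was EGR1 with IER2, at a Pearson r of 0.09, 0.11, 0.14 and 0.12, followed by JUNB with EGR1 at 0.08 to 0.09 and JUN with IER3 at 0.07 to 0.10. The cells of a library share 1 preparation and were thinned to 1 depth, so r also carries what is fixed by the total.

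Cells with an EGR1 UMI had a higher mean of JUNB UMIs than cells without one, by 1.67 times in control (interval 1.41 to 1.95), 1.72 at 10 mGy (1.49 to 1.98) and 1.79 at 100 mGy (1.57 to 2.05), and 1.65 at 1 Gy (1.45 to 1.88). For IER2 the same ratio was 1.30, 1.36, 1.46 and 1.38, and for FOS 1.39, 1.65, 1.45 and 1.57, with every interval above 1. For FOSL1 it was 0.931, 1.08, 1.03 and 0.997 and for FOSB 1.29, 1.14, 0.951 and 1.24, on both sides of 1, and the low-dose intervals of FOSB (0.939 to 1.38 and 0.762 to 1.18) included 1. Cells with a FOS UMI had 1.56, 2.62, 2.07 and 1.58 times the FOSB mean of the other cells, and 1.38, 1.45, 1.40 and 1.47 times the EGR1 mean.

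The non-members whose counts ran most like each member over cells, by the highest value of the lowest r over the 4 libraries, were as follows. For IER3 they included CCN1 (r 0.12 to 0.16) and HIST1H4C (0.12 to 0.19). For EGR1 they were CCN2 (0.06 to 0.12), HIST1H4C and CYP1B1, for ATF3 CDKN1A (0.05 to 0.08), GADD45A and DUSP1, and for FOSB HES1 (0.02 to 0.04), NR4A1 and NFKBIZ. For FOS they were GADD45B, ATXN3 and CYP1B1, all with r under 0.03. For JUNB they were CXCL8, NFKBIA and MIDN, for IER2 CCN1, MIDN and CCN2, and for MYC CCN1, F3 and ZFP36L1. For JUN they included F3 and CCN1, and for FOSL1 HIST1H4C and TNFRSF12A. Over all tested genes the 99th percentile of r was 0.039 to 0.043 for IER3, 0.029 to 0.032 for EGR1 and 0.022 to 0.026 for FOS. CCN2 lay above that of EGR1 in each library, and the FOS genes lay below that of FOS. Values this small in sparse counts describe the ranking only.

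In each library the 10% of thinned cells with the most UMIs of 10 mitosis genes were set against the remaining cells. IER3 was lower in these cells in every library, at 0.604 times the mean of the rest in control (interval 0.571 to 0.640), 0.670 at 10 mGy (0.639 to 0.701) and 0.544 at 100 mGy (0.516 to 0.573), and 0.642 at 1 Gy (0.610 to 0.675). JUN was lower too, at 0.676, 0.705, 0.633 and 0.621 times, and IER2 at 0.807, 0.813, 0.787 and 0.895 times. MYC stood at 0.693, 0.902, 0.713 and 0.702 times and ATF3 at 0.824, 0.421, 0.597 and 0.869 times. For MYC at 10 mGy the interval (0.800 to 1.01) included 1. So did those of ATF3 in control (0.623 to 1.07) and at 1 Gy (0.688 to 1.08). For FOS the ratio was 1.53 (1.23 to 1.88), 1.03 (0.741 to 1.41), 1.58 (1.14 to 2.14) and 1.53 (1.27 to 1.83). EGR1 differed between libraries, at 1.10 (0.943 to 1.27), 0.811 (0.715 to 0.918), 0.642 (0.566 to 0.726) and 0.980 (0.871 to 1.10). Levels of the mitosis list itself were 2671, 2053, 2297 and 2781 CPM summed over its genes, and its part in the levels above was not tested.

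**Figure D5:**
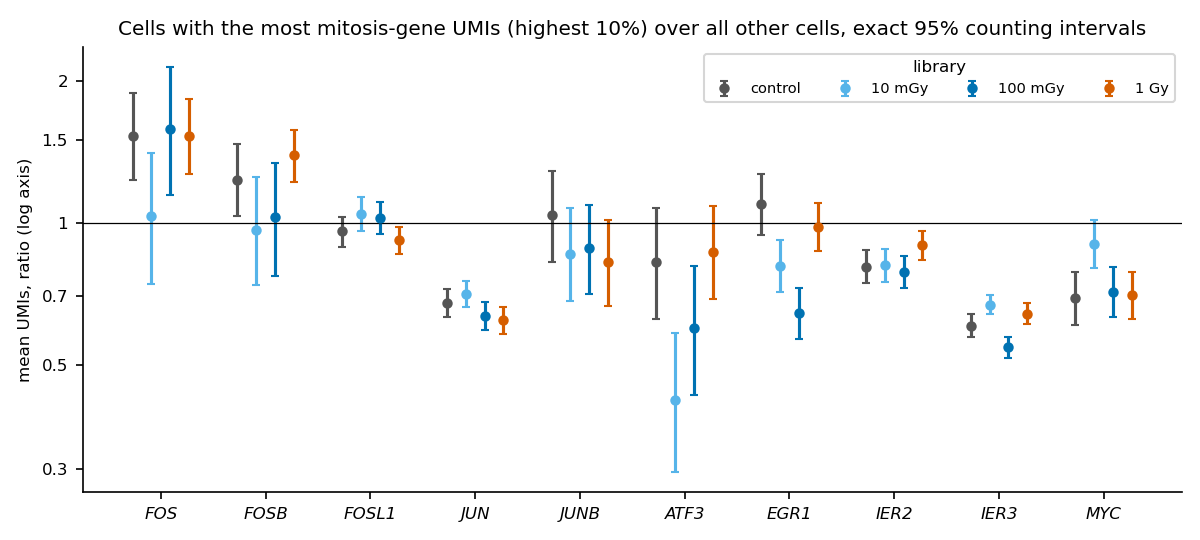
Mean UMIs of each gene in the 10% of cells with the most mitosis-gene UMIs, divided by the mean in all other cells (y axis, log scale), in the 4 libraries, with exact 95% counting intervals. JUN and IER3 (0.544 to 0.705), and also IER2, MYC and ATF3, lie below 1 in all 4 libraries, and FOS lies at 1.03 to 1.58.

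The partners and regulators of these genes were described from further lists. Of 16 AP-1 and ATF partners, 14 were tested, and 2 were over 1.2-fold higher and 10 lower in CPM at 10 mGy, 1 and 11 at 100 mGy, and 0 and 0 at 1 Gy, where 53.0%, 58.9% and 0.846% of all tested genes were lower. Scaled by median ratio, 2 were higher and 5 lower at 10 mGy, 3 and 5 at 100 mGy, and 0 and 0 at 1 Gy. By CPM, 15.4%, 14.0% and 1.28% of all tested genes were higher at 10 mGy, 100 mGy and 1 Gy. Under median ratio scaling 30.6%, 31.8% and 0.658% were higher, and 27.3%, 29.0% and 1.59% lower. The share for the same scaling and direction applies to each list that follows. Highest and lowest refer to the tested genes of a list. JUND, a Jun subunit that is expressed in resting cells, was the highest at 100 mGy at 142 CPM against 102 in control, a ratio of 1.40 (1.37 to 1.42). MAFF, a small MAF protein without an activation domain, was the lowest at 12.9 against 37.5 CPM, a ratio of 0.343 (0.329 to 0.358). At 1 Gy the same list ran from ATF1, a CREB relative (ratio 0.892), to MAFK, another small MAF (1.14).

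Of the 11 SRF and EGR regulators, 8 were tested, and 7 were lower at 10 mGy and 8 at 100 mGy, and 0 at 1 Gy, with 0, 0 and 1 higher. ELK3, an ETS factor that works with serum response factor, had 144 CPM in control and 58.3 at 100 mGy, a ratio of 0.405 (0.397 to 0.414), while ELK1 was the highest of the list there at 0.830. SRF, serum response factor itself, was the gene over 1.2-fold higher at 1 Gy, with 34.0 against 28.2 CPM and a ratio of 1.21 (1.17 to 1.25), and NAB1, a repressor of EGR1, was lowest at 0.981. After median ratio scaling 5 of the 8 were lower at each low dose and 0 were higher at any dose, so SRF at 1 Gy, at 0.24 on that log2 scale, was no longer past 1.2-fold.

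Among 36 other immediate early genes, 26 were tested: 2 were higher and 13 lower at 10 mGy, 3 and 19 at 100 mGy, and 1 and 0 at 1 Gy. NR4A1, an orphan nuclear receptor of the early wave, had 29.3 CPM in control, 5.92 at 10 mGy and 5.01 at 100 mGy, and 38.1 at 1 Gy. Its ratio of 0.171 (0.160 to 0.182) at 100 mGy was the lowest of the 26 tested genes. Its ratio of 1.30 (1.26 to 1.34) at 1 Gy was the highest of these 26. FOSB, likewise, was below control at 100 mGy and above it at 1 Gy. SERTAD1 was the highest at 100 mGy, with 51.0 against 33.1 CPM and a ratio of 1.54, and was above control there as EGR1 was. NR4A1 passed the 10 CPM filter only through its control and 1 Gy levels. GADD45B, a stress gene that binds upstream kinases, was the lowest at 1 Gy at 0.843 (0.829 to 0.856). After median ratio scaling 6 were higher and 6 lower at 10 mGy, 7 and 10 at 100 mGy, and 1 and 3 at 1 Gy, where 0.658% and 1.59% of all tested genes were.

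Of 16 feedback inhibitors, 10 were tested, with 7 lower at 10 mGy and 9 at 100 mGy, and 0 at 1 Gy, and none higher at any dose by CPM or by median ratio scaling, under which 6 and 7 were lower at the low doses. DUSP5, a nuclear phosphatase for ERK, had 16.0 CPM in control and 5.46 at 100 mGy, a ratio of 0.341 (0.320 to 0.363); at 9.29 and 5.46 CPM in the low-dose libraries it passed the filter only through control and 1 Gy. NFKBIA, the NF-kB inhibitor, was highest there at 0.901, or 0.23 on the log2 scale after median ratio scaling. At 1 Gy the list ran from SPRED1, an inhibitor of RAS signalling (0.896), to ZFP36, an mRNA-decay factor that acts on immediate early transcripts (1.14).

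Of 10 AP-1 targets, 5 were tested, with 4 lower at 10 mGy and 5 at 100 mGy, and 0 at 1 Gy, and none higher. By median ratio, 2, 3 and 1 of these 5 were lower and 0 higher. CCND1, which encodes cyclin D1, had 111 CPM in control and 49.5 at 100 mGy, a ratio of 0.446 (0.437 to 0.456), and PLAUR, the urokinase receptor, was the highest of the list at 0.681. At 1 Gy the list ran from the chemokine CXCL8 (0.836) to the adhesion receptor CD44 (1.01). Of the 10 MYC partners, 8 were tested, with 1 higher and 4 lower at 10 mGy, 1 and 3 at 100 mGy and 0 and 0 at 1 Gy; after median ratio scaling 4 were higher and 4 lower at 10 mGy and 5 and 3 at 100 mGy, so the balance was even at the lower dose and turned at the other. MXD3, which competes with MYC for MAX, was at 1.28 and MGA, another MAX partner, at 0.427 at 100 mGy. All 12 MYC targets were tested and 7 were lower at 10 mGy and 8 at 100 mGy, and 0 at 1 Gy, with none higher. RRS1, a ribosome assembly factor, had the lowest ratio at both 100 mGy (0.535) and 1 Gy (0.857), and LDHA (1.12 at 100 mGy) and DKC1 (1.13 at 1 Gy) the highest. After median ratio scaling 2 MYC targets were higher and 3 lower at 10 mGy, and 4 higher and 2 lower at 100 mGy, so the balance of that list turned at 100 mGy.

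The cell cycle and nuclear lists gave the setting for these values. Of the 10 mitosis genes, 1 was higher and 6 lower at 10 mGy, 2 and 4 at 100 mGy, and 1 and 0 at 1 Gy. Scaled by median ratio, the counts were 1 and 3, 3 and 1, and 0 and 0, so the balance at 100 mGy turned. UBE2C, a ubiquitin-conjugating enzyme of mitotic exit, was highest at 100 mGy (ratio 1.82) and the proliferation marker MKI67 lowest (0.519), while at 1 Gy the list ran from CENPF (0.956) to CDK1 (1.21). Of the 10 replication genes, 3 were higher and 2 lower at 10 mGy, 2 and 4 at 100 mGy, and 0 and 0 at 1 Gy, from CCNE2 (0.641) to GINS2 (1.22) at 100 mGy and from PCNA (0.950) to MCM5 (1.10) at 1 Gy. By median ratio, 7 replication genes were higher at 10 mGy and 6 at 100 mGy, with 0 lower at any dose and 0 higher at 1 Gy, so the balance at 100 mGy turned there too. Both nuclear retained RNAs, MALAT1 (0.588 at 100 mGy) and NEAT1 (0.560), were lower at the low doses and neither was past 1.2-fold at 1 Gy. Scaled by median ratio, NEAT1 at 10 mGy was no longer past 1.2-fold, at -0.09 on the log2 scale. Whether cell cycle make-up or the share of nuclear RNA had a part in the levels of the immediate early genes was not tested.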

How the data were processed

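The deposited matrices hold UMI counts per gene and barcode, which the authors made with Cell Ranger (version 7.0.1 per the file headers). The submitters' processing notes name STAR and GRCh37. No further filter, doublet removal or cell type annotation was part of the files used here, and they hold more barcodes than the cell number the study's methods give. All deposited barcodes were used, and no doublets were removed. Counts were pooled per library and expressed as CPM. Ratios carry exact conditional intervals at 95%, levels exact Poisson intervals and shares of cells exact Clopper-Pearson intervals. Shares and dispersion used cells thinned without replacement to 5000 UMIs, with 1500 and no thinning as alternatives. With 1 library per dose no test was run, and a gene was named higher or lower past 1.2-fold, the study's threshold. Other scalings and barcode filters were run as alternatives. The members and lists were chosen with earlier results of these data known. All members were named, with the highest and lowest tested gene of each other list at 100 mGy and at 1 Gy and the 3 genes most like each member, of which 1 is not reported here for IER3, JUN and FOSL1. Calculations used Python 3.11.15, numpy 2.4.6, scipy 1.17.1 and pandas 2.3.3, and the steps were tested on simulated data.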

Additional observations from a re-analysis of the deposited data

How the results depend on the processing

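With the CPM scale replaced by median ratio scaling, 2 members were over 1.2-fold higher at 10 mGy, 3 were lower at 10 mGy and 3 were lower at 100 mGy, and 3 log2 ratios changed sign: JUN at 10 mGy (0.019), ATF3 at 10 mGy (0.010) and IER3 at 100 mGy (0.11). With ribosomal protein and mitochondrially encoded genes left out of the totals, 5 were lower at 10 mGy and 8 at 100 mGy. Without low-UMI barcodes 7 were lower at 10 mGy and 9 at 100 mGy. A threshold of 1.5-fold left 0 higher at each dose, 3 lower at 10 mGy and 5 lower at 100 mGy. The share of all tested genes was not computed for these totals, this filter or this threshold. At 100 mGy, MYC was just past 1.5-fold lower at a CPM ratio of 0.666, and 33.8% of tested genes had a lower ratio. At least that share of tested genes was thus past 1.5-fold lower there. The other counts have no background, and none of these counts is read as a result about the members. FOS, FOSB and FOSL1 stayed lower at both low doses, and EGR1 higher at all 3, under the 8 other scalings and filters; at 1 Gy FOSB stayed higher under all 8. JUNB at 1 Gy and IER3 at 10 mGy, whose CPM differed from control by less than counting error, also changed sign under other settings. Of the members' alternative log2 ratios, 164 stayed within their counting interval; the rest moved further, among them the changes of sign named above. Shares of cells and top shares move with the thinning depth by construction. At 1500 UMIs per cell, where shallower barcodes also entered, the order of 10 and 100 mGy turned in the shares of cells for FOSL1, IER2, JUNB, ATF3 and EGR1. No paired analysis was possible because each dose has 1 library, and no replicate could be left out.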
